A study of Mus musculus with 12 samples.

Results

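The acute-phase proteins examined here are the products of 10 genes, Saa1, Saa2, Saa3, Hp, Hpx, Orm1, Orm2, Lcn2, Crp and Apcs. They were taken by symbol from a table of 22276 gene symbols, and all 10 had a value in every library. RNA had been sequenced from liver, quadriceps muscle and the white and brown adipose tissue (WAT and BAT) of male C57BL/6J mice aged 17 wk. Mice on a normal chow diet given vehicle (NCD-veh) were compared with mice on a high-fat diet with 60% of calories from fat, fed from 8 wk of age and given vehicle (HFD-veh) or narciclasine (HFD-ncls). Narciclasine (ncls), a plant alkaloid, was given by gavage at 1 mg/kg each week from 10 wk of age for 7 wk, and no chow-fed mice given ncls were analysed here, so every ncls value is from mice on HFD. Each of the 4 organs had 1 library per group, 12 in all, and the number of mice behind a library is not given in the sources used here. No difference between groups therefore has a replicate check, no p-value is given, and the diet or drug cannot be told apart from what else differed between 2 libraries.

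The acute-phase response is the change in plasma proteins that follows infection, injury or inflammation. Interleukin-6, acting through STAT3, and interleukin-1 and tumour necrosis factor, acting through NF-κB and C/EBP factors, raise the transcription of these genes in hepatocytes within hours. Serum amyloid A1 and A2 (Saa1, Saa2) are small apolipoproteins of high-density lipoprotein, and serum amyloid A3 (Saa3) is made mainly outside the liver, by adipocytes and macrophages among others. Haptoglobin (Hp) binds free haemoglobin and haemopexin (Hpx) binds free haem. The orosomucoids (Orm1, Orm2) are plasma carrier proteins, and lipocalin 2 (Lcn2) binds the iron-carrying siderophores of bacteria. C-reactive protein (Crp) and serum amyloid P component (Apcs) are pentraxins. In mice Apcs and the Saa genes respond strongly to inflammation, and Crp does so little. Hp, Saa3, Lcn2 and Orm1 are known products of fat as well as of liver.

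Levels are FPKM, fragments scaled to transcript length and to sequencing depth, so that genes of different length can be compared. Where 3 values of an organ follow each other without a group name, NCD-veh comes first, HFD-veh next and HFD-ncls last. The depth of a library, estimated from the steps between low FPKM values, was about 19500000 to 27700000 fragments, and 9130 to 12052 genes reached 1 FPKM. The markers of each organ were present in its libraries. 2 libraries stood apart because they held liver transcripts. A set of 232 genes that are enriched in liver and are not listed acute-phase genes stood at a median of 0.679% of their level in the liver of the same group in the HFD-veh muscle library. The same median was 0.329% in HFD-ncls WAT, 0.107% in HFD-veh WAT and at most 0.0238% in the other WAT, BAT and muscle libraries. Of 15 hepatocyte markers with a value everywhere, all 15 reached 1 FPKM in HFD-veh muscle against 1 in either other muscle library, and 14, 10 and 2 did so in HFD-ncls, HFD-veh and NCD-veh WAT. The HFD-veh liver library in turn held skeletal muscle transcripts, with 5 markers summing to 44.5 FPKM against 1.58 in NCD-veh and 2.16 in HFD-ncls liver.

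The 3 Saa genes lie together on chromosome 7 of mm9, the build used for the table: Saa3 at 53967368 to 53971046 on the minus strand, Saa1 at 53995871 to 53998350 on the minus strand and Saa2 at 54007203 to 54009684 on the plus strand. Hpx is on the same chromosome at 112740127 to 112748630. Orm1 (63005594 to 63009197) and Orm2 (63023483 to 63026912) are neighbours on chromosome 4, and Crp (174628187 to 174630097) and Apcs (174824093 to 174825185) lie near each other on chromosome 1. Hp is on chromosome 8 at 112099030 to 112103072 and Lcn2 on chromosome 2 at 32240153 to 32243317. All 10 are annotated as protein-coding. The first 120 coding bases of the 3 Saa genes, read from mm9, are shown because the split of fragments between them limits what can be said of each. Capitals mark bases that differ from Saa1.
Saa1: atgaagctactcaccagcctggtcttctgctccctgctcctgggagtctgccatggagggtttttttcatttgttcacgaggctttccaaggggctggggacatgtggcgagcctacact
Saa2: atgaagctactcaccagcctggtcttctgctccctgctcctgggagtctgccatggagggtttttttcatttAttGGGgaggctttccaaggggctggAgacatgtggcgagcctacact
Saa3: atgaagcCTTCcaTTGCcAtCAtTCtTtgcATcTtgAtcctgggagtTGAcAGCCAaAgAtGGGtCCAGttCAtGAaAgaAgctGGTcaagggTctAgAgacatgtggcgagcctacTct
In this stretch Saa2 differed from Saa1 at 5 positions and Saa3 at 48. Over the whole coding sequence Saa1 and Saa2 were 95.1% identical, with 18 mismatches in 369 bases and a run of 73 identical bases, so that fragments shared by both could be assigned to either. Saa3 was 74.3% identical to Saa1. Orm1 and Orm2 were 89.9% identical, and Orm3, a further copy, was 86.1% identical to Orm1. The split between Saa1 and Saa2, and among the orosomucoids, is therefore uncertain, and their sums are firmer than the single values.

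The promoters of 5 members are shown as context for the liver values, where Saa1, Saa2, Saa3 and Lcn2 differed most between chow and HFD and Crp differed least. They are 250 bases before the start given by RefSeq (GRCm38.p6), placed on mm9 by an exact match, with 192 bases for Lcn2, where 58 bases inside its mm9 annotation were left out. Each reads 5′ to 3′ toward the gene. Capitals mark matches on either strand to the C/EBP motif TTNCNNAA or the looser NF-κB motif (GGG, any 5 bases, CC), and adjoining matches run together.
Saa1, chr7:53998351-53998600, minus strand: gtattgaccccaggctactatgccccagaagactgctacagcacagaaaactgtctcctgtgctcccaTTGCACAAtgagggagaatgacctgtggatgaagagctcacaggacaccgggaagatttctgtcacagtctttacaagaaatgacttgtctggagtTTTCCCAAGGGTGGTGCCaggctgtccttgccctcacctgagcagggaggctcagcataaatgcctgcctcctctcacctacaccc
Saa2, chr7:54006953-54007202, plus strand: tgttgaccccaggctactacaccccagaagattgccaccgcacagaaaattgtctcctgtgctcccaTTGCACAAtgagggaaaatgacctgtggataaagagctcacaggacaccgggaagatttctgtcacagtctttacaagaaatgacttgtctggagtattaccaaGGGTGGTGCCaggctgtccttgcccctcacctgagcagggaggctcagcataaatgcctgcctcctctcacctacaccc
Saa3, chr7:53971047-53971296, minus strand: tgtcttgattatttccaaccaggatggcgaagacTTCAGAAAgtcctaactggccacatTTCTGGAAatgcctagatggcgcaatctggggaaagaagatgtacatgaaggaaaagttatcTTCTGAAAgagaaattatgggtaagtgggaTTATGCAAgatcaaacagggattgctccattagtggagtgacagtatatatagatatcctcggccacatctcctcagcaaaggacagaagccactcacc
Lcn2, chr2:32243318-32243509, minus strand: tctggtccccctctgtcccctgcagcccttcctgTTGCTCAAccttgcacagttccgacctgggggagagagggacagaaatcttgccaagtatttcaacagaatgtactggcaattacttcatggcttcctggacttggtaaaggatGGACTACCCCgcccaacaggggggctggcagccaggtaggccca
Crp, chr1:174627937-174628186, plus strand: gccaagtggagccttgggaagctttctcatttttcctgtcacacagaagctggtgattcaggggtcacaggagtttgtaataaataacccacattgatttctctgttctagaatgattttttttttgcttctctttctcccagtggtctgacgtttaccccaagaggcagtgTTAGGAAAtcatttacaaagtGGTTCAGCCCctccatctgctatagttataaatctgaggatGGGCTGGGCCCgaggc
The promoters of Saa1 and Saa2 were 94.8% identical, and that of Saa3 was 44.7% identical to Saa1. Of 8 members with a promoter in the RefSeq table (all but Hp and Orm1), 7 held TTNCNNAA, which 36.9% of 27025 promoters of the same length held. The looser NF-κB motif was in 4 of 8, those of Saa1, Saa2, Lcn2 and Crp, against 45.4% of all promoters. A tighter form (GGGA, any base, TTTCC) and an HNF1 motif (GTTAAT, any base, ATT) were in 0 of 8, against 0.337% and 0.411% of all. The STAT motif TTCNNNGAA was in 1 of 8, that of Apcs, against 7.18%. Matches are letters in a window and not shown to be bound. Crp, whose liver level did not follow the others, held both of the motifs marked above.

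Liver was the main source of these transcripts, and its NCD-veh library held far more of them than either HFD library. In liver the 10 genes made up 5.86% of summed FPKM on NCD-veh, against 0.97% on HFD-veh and 1.13% on HFD-ncls. Saa1 and Saa2 alone made up 2.65%, 0.0387% and 0.0832%. For HFD-veh over NCD-veh, 9 of the 10 genes were lower by over 2-fold and the other, Crp, was under 2-fold. Among all 10016 genes with at least 1 FPKM in 1 of the 2 libraries, 2.27% were lower by over 2-fold and 5.12% differed in either direction. Members were 4 of the 5 lowest ratios and 5 of the 10 lowest. Since tissue RNA was measured, fewer cells of a type and less RNA per cell cannot be told apart.

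Saa2, a serum amyloid A gene, had the widest liver range of all members. Saa1 stood at 7071, 132 and 299 FPKM in liver, and Saa2 at 6590.1, 53.7 and 118. NCD-veh liver was high and both HFD livers were low for each. On log2(FPKM + 0.1), Saa1 was lower by 5.74 (53.4-fold) and Saa2 by 6.94 (123-fold) in HFD-veh than in NCD-veh. Saa3, at 419, 7.67 and 11.96 FPKM, followed the same order with a log2 ratio of -5.76. These levels rested on many fragments, about 79900 for Saa1 in NCD-veh liver and 1440 in HFD-veh liver, so counting error was small beside the difference, while the spread between mice is unknown.

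Lcn2, the siderophore-binding lipocalin, went with the Saa genes. It was at 681, 10.2 and 11.6 FPKM in liver, a log2 ratio of -6.05 for HFD-veh over NCD-veh. The orosomucoids came next: Orm1 stood at 2930.3, 626 and 659 FPKM and Orm2 at 1166, 86.2 and 98.3. Their log2 ratios for diet were -2.23 and -3.76, so the copy with the lower level differed more.

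The haem and haemoglobin binders remained abundant in every liver library. Hpx was at 6697, 1915 and 2381 FPKM and Hp at 4311, 1601 and 1868. Their log2 ratios for diet, -1.81 and -1.43, were the smallest of the 9 that were lower. Of the 2 pentraxins, Apcs stood at 203, 44.9 and 52.2 FPKM with a log2 ratio of -2.18. Crp stood at 171, 185 and 138 FPKM with a log2 ratio of 0.11, and its HFD-veh library was the highest of the 3.

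**Figure D1:**
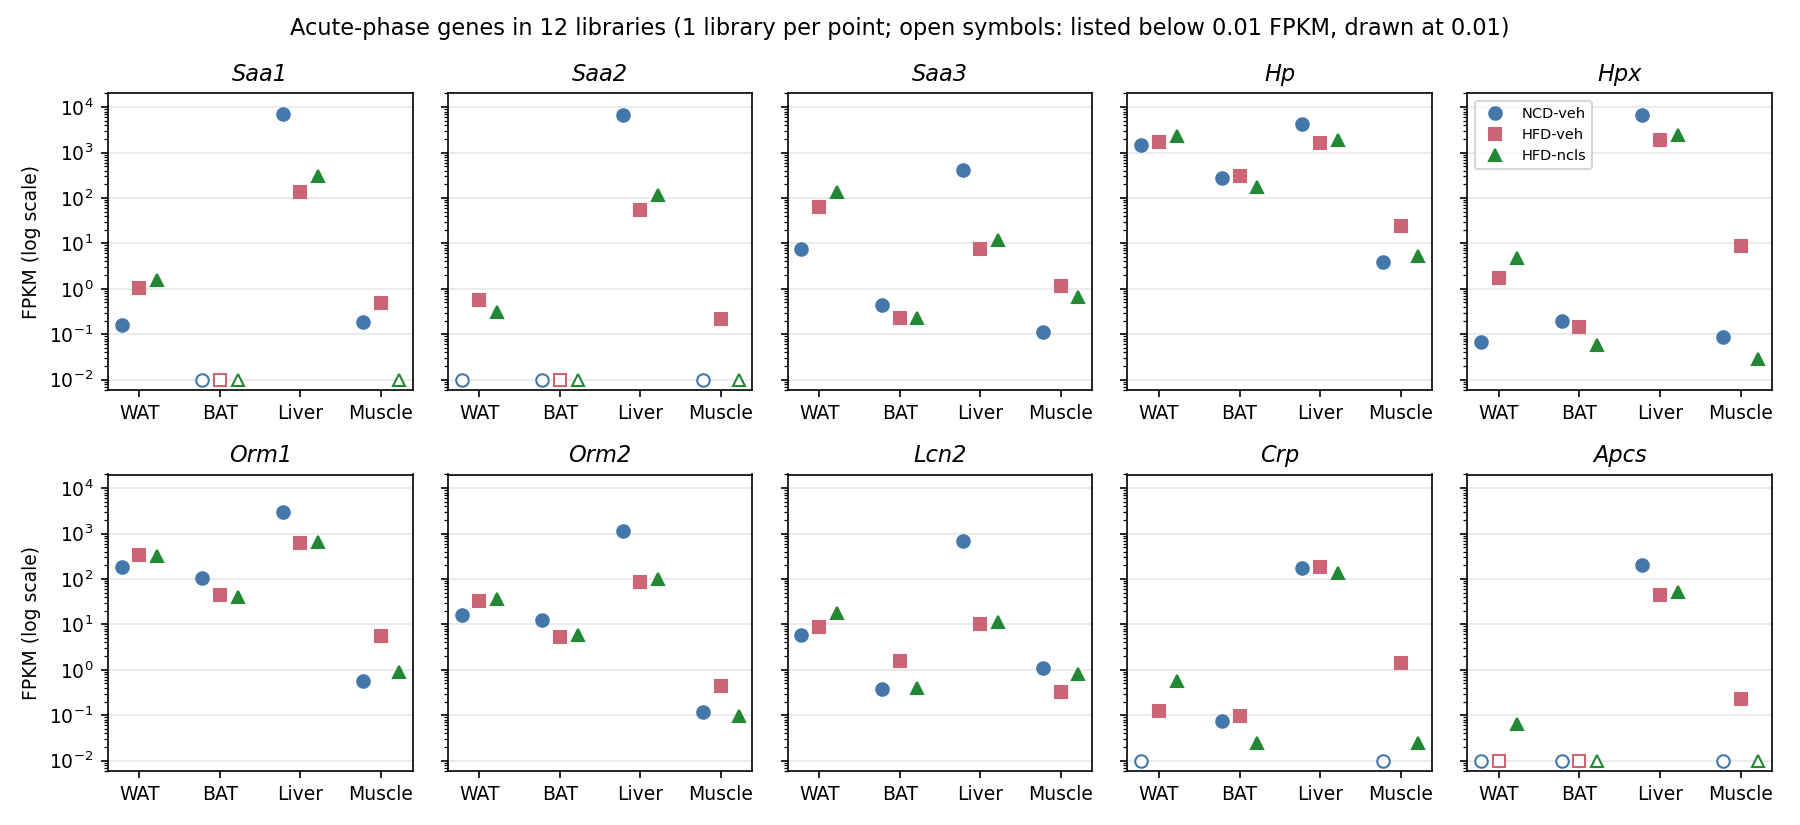
FPKM on a log axis for the 10 acute-phase genes, 1 point for each of the 12 libraries, grouped by organ and coloured by group, with values under 0.01 drawn as open symbols at 0.01. Liver is highest for most genes, WAT reaches or passes the HFD liver libraries for Saa3, Hp and Lcn2, and NCD-veh liver stands far above both HFD livers for the Saa genes and Lcn2.

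HFD-ncls liver, the second library from mice on HFD, also stood below NCD-veh for 9 of 10 members, with Crp again under 2-fold. In that comparison 2.62% of 9961 genes were lower by over 2-fold and 5.2% differed in either direction, and members were 4 of the 5 lowest ratios. Both comparisons use the same NCD-veh liver library, so they do not show whether the high values belong to chow-fed mice or to that library.

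Other genes of the response were lower too, but less widely. A further 22 positive acute-phase genes were listed by their known response, with earlier results of these data known. In liver 21 passed the filter, 9 were lower by over 2-fold and 1 was higher. Among all 10016 genes 2.27% were lower and 5.12% differed in either direction. The median log2 ratio of the list was -0.58 against 0.04 for all genes. Of the 9 lower genes, the metallothioneins Mt1 (1431, 200, 227 FPKM) and Mt2 (584, 45.5, 48.8) bind zinc and copper. Orm3, Itih3, Itih4, Serpina3n, Lbp, C3 and Lrg1 were the other lower genes, with log2 ratios from -2.47 to -1.15. The metalloreductase Steap4 was the higher gene, at 15.3, 36.5 and 32.0 FPKM. The fibrinogen chains were under 2-fold, for example Fga at 1632, 1009 and 1016 FPKM.

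Genes that fall in the acute phase did not mirror this. Of the 7 negative acute-phase genes with a liver value, 1 was higher by over 2-fold, Serpina6, the corticosteroid-binding globulin, at 148, 343 and 315 FPKM, and the median log2 ratio was -0.19. Albumin had no value in the liver libraries. Of the cytokines, receptors and factors of the response, 18 passed the filter in liver and 0 passed 2-fold, against 5.12% of 10016 genes in either direction. The 18 included the interleukin-6 receptor Il6ra at 15.1, 17.4 and 17.5 FPKM and Stat3 at 18.9, 19.6 and 21.3. Il6 was listed at 0 in all 3 livers. Hepatocyte markers had a median log2 ratio of 0.03 with 1 of 15 higher, so the lower levels were not shared by hepatocyte genes at large. Macrophage markers summed to 41.0, 32.8 and 25.4 FPKM, and their part in the result was not tested.

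**Figure D2:**
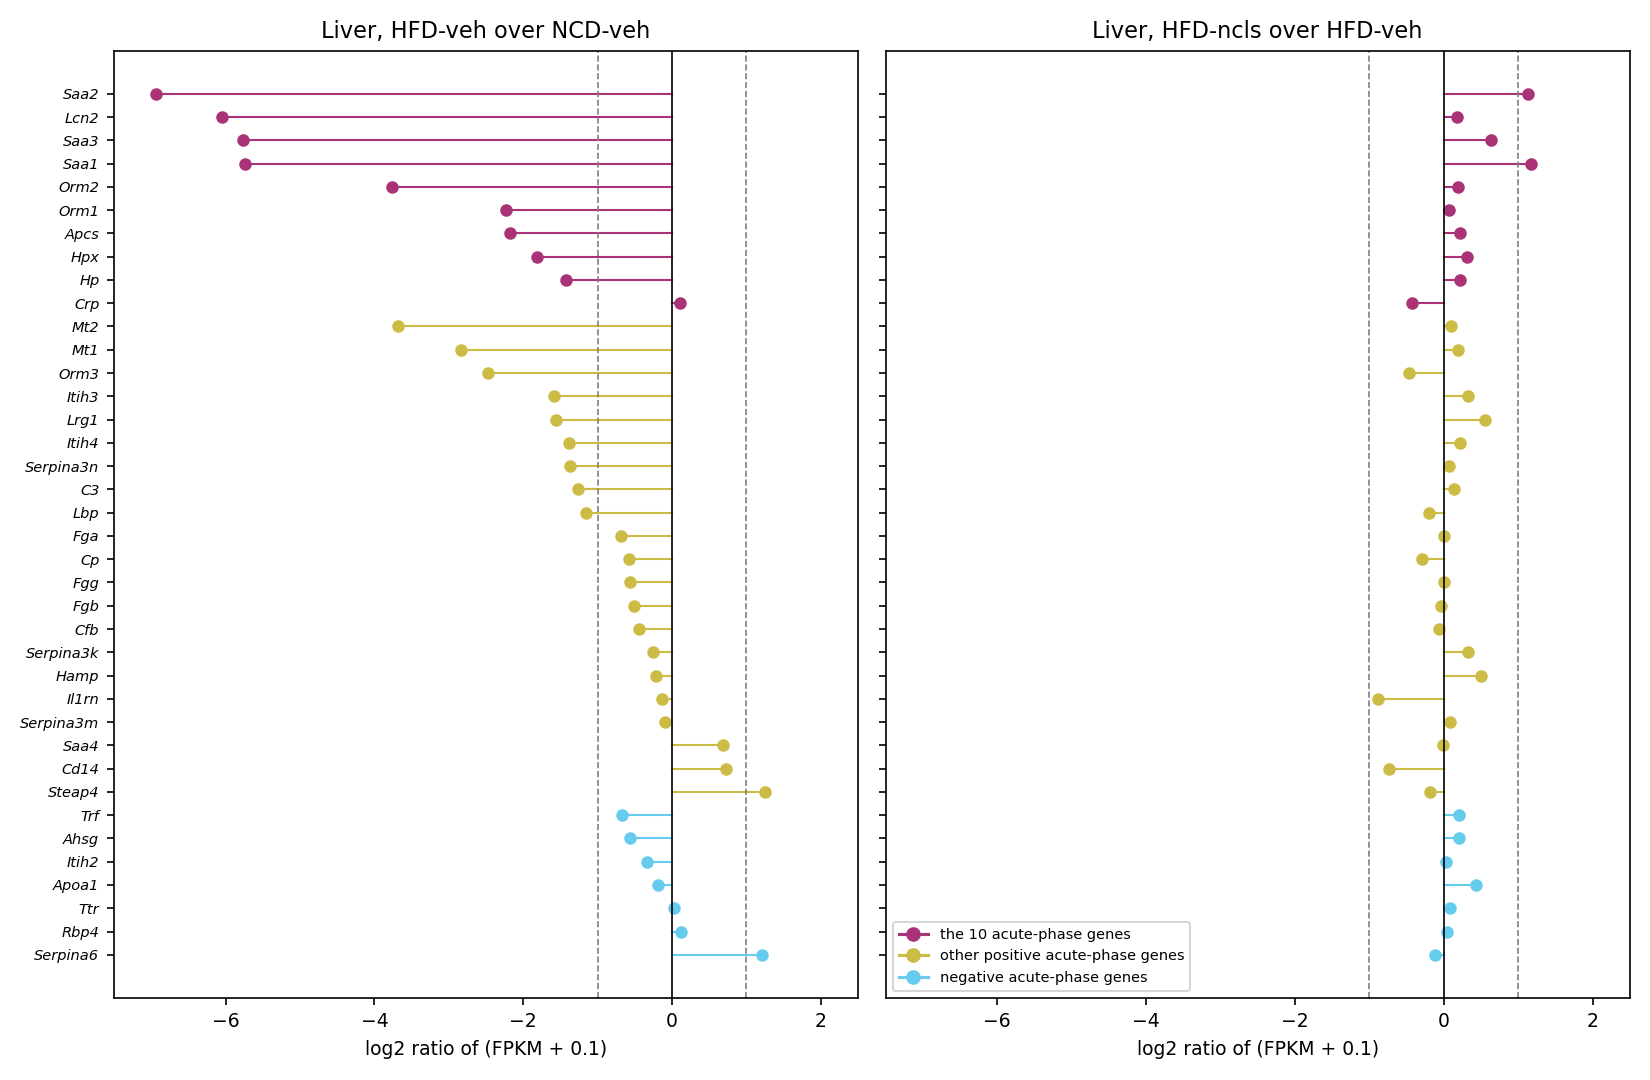
Log2(FPKM + 0.1) ratios in liver for the 10 genes and for other positive and negative acute-phase genes, HFD-veh over NCD-veh and HFD-ncls over HFD-veh, 1 point per gene, with dashed lines at 2-fold. For diet 9 of 10 members lie below the lower line and Crp near 0, while for ncls Saa1 and Saa2 lie just above the upper line and the other 8 between the lines.

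Liver levels differed little between HFD-ncls and HFD-veh. For HFD-ncls over HFD-veh, 2 members, Saa1 (log2 ratio 1.17) and Saa2 (1.13), were higher by over 2-fold and 8 were under 2-fold, where 1.0% of 9956 genes were higher and 2.31% differed in either direction. Both remained far below NCD-veh liver, and as near copies they count as little more than 1 measurement. Saa3 had a log2 ratio of 0.63 and Crp of -0.42, the ends of the range of the other 8. Of the 21 other positive acute-phase genes that passed the filter, 0 passed 2-fold, with a median of 0.01.

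WAT was the other large source. Hp was at 1465, 1707 and 2272 FPKM in WAT and ranked 18, 12 and 6 among all genes by FPKM. Its WAT range overlapped that of liver, and WAT over liver came to 0.34, 1.07 and 1.22. Orm1 stood at 181, 330 and 322 FPKM and Orm2 at 15.9, 33.1 and 35.9, in both cases below every liver library and above every BAT library.

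Of the members that reached 5 FPKM in WAT, Saa3 varied most. It was at 7.56, 61.8 and 132 FPKM there, while Saa1 and Saa2 did not pass 1.60 FPKM. WAT over liver for Saa3 was 0.018, 8.05 and 11.1, so the organ with the higher level turned round between chow and HFD. Lcn2 was at 5.94, 8.60 and 17.7 FPKM in WAT, with WAT over liver at 0.00871, 0.845 and 1.53. Both terms of the ratio moved for Saa3, since its liver level was lower by 54.0-fold in HFD-veh than in NCD-veh, and for Lcn2 the liver level, lower by 66.3-fold, moved far more than the WAT level. Saa3 and Lcn2 ranges in WAT and liver overlapped, as did those in BAT and muscle, which lay lower.

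For HFD-veh over NCD-veh in WAT, 7 of 10 members passed the filter and 4 were higher by over 2-fold, against 5.24% of 12208 genes higher and 9.11% in either direction. They were Saa3 (log2 ratio 3.01), Hpx (3.41), Saa1 (2.14, or 0.83 with a pseudocount of 1) and Orm2 (1.05). Hpx at 0.0686, 1.69 and 4.89 FPKM and Saa1 at 0.163, 1.06 and 1.60 were low, and moved in the order of the liver-enriched set across these 3 libraries. Both passed the filter only through HFD-veh WAT, so for diet they could only be higher. After the liver share was taken off every WAT library, Hpx came to 0 in all 3 and Saa1 to 0, 0.92 and 0.614 FPKM, under the filter. Each 0 stands where the share taken off exceeded the listed level. That share was 1.59, 2.05 and 7.82 FPKM for Hpx, and 1.68 for Saa1 in NCD-veh WAT. Saa3 (7.46, 61.7, 132) and Orm2 (15.6, 33.0, 35.6) hardly moved, so 2 of the 4 were left. Orm1 (0.86), Lcn2 (0.53) and Hp (0.22) were under 2-fold. Saa2, Crp and Apcs stayed under 1 FPKM in every WAT library and were not compared.

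For HFD-ncls over HFD-veh in WAT, 3 of 7 members that passed were higher by over 2-fold, against 1.49% of 12152 genes higher and 1.7% in either direction. Saa3 had a log2 ratio of 1.10, Lcn2 of 1.03 and Hpx of 1.47. Lcn2 lay at the threshold, at 0.96 with a pseudocount of 1 and 0.99 after rescaling by the median ratio. Hpx went to 0 after the liver share was taken off, while Saa3 stayed at 1.10. In HFD-ncls WAT, Saa3, Hp and Lcn2 stood at 1110%, 122% and 153% of their level in HFD-ncls liver, Orm1 at 48.9% and Orm2 at 36.5%, all far over the 0.329% of liver-enriched genes, whose quartiles were 0.235% and 1.21%. Saa1 (0.534%), Saa2 (0.259%) and Crp (0.415%) lay between those quartiles. Hpx (0.205%) and Apcs (0.122%, on about 1.03 fragments) lay below the lower quartile.

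**Figure D3:**
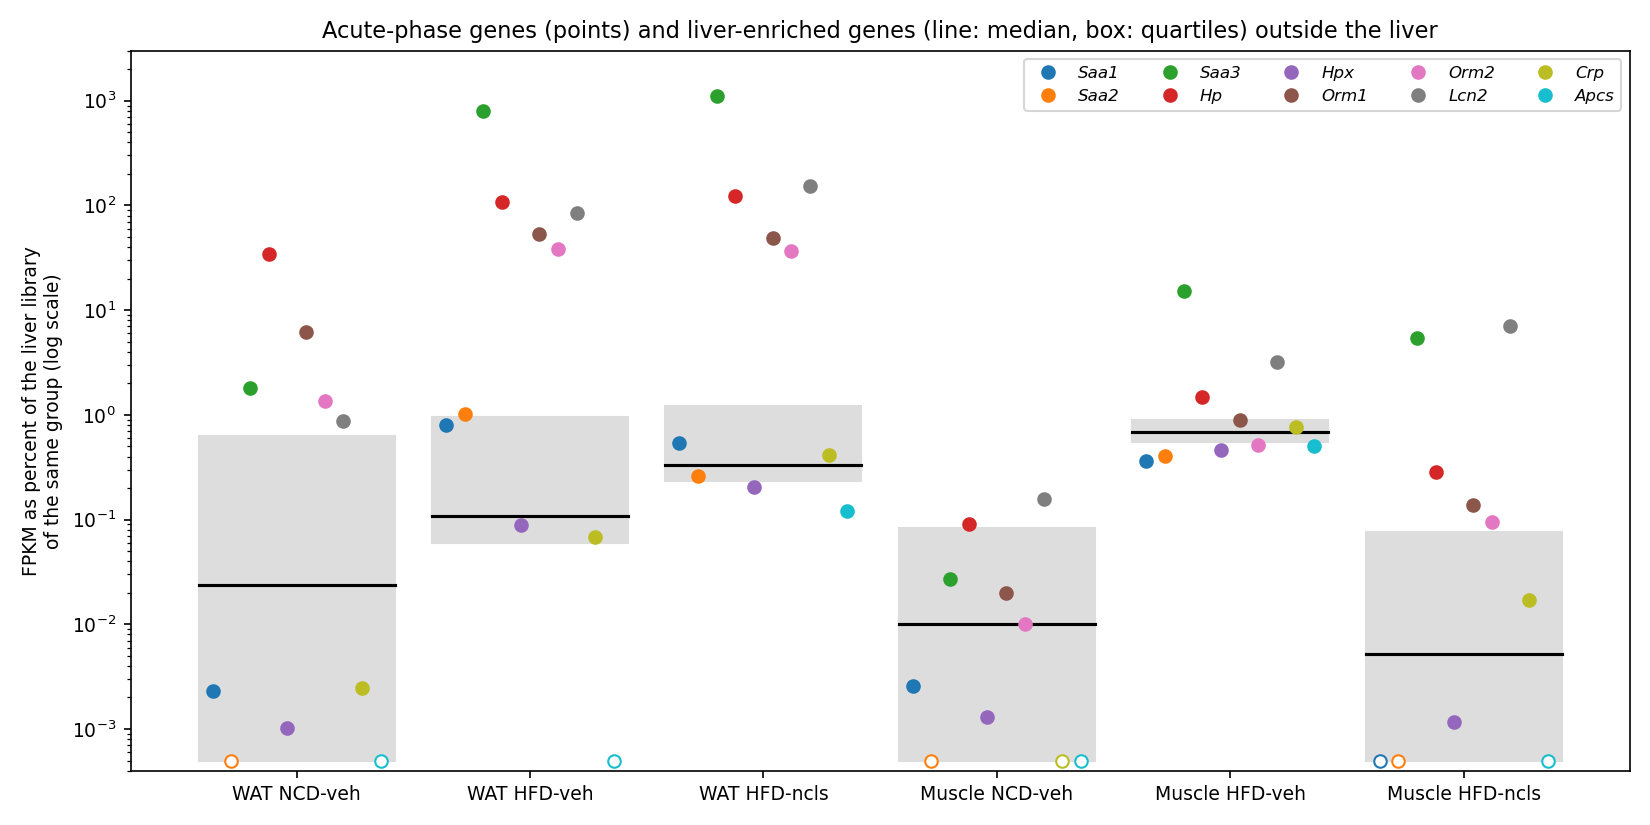
Each member in the WAT and muscle libraries as a percent of its FPKM in the liver library of the same group, on a log axis, beside the median (line) and quartiles (box) of 232 liver-enriched genes, with percents under 0.0005 drawn as open symbols at 0.0005. In HFD-veh muscle and HFD-ncls WAT the liver-specific members sit near or below the median of 0.679% or 0.329%, while Saa3, Hp, Orm1, Orm2 and Lcn2 in WAT sit far above it.

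Cells and signals that go with Saa3 in fat were also read. The 8 macrophage markers with a value summed to 668, 922 and 1146 FPKM in WAT. For diet 3 of 8 were higher by over 2-fold, against 5.24% of 12208 genes. They were Itgax, an integrin of inflammatory macrophages, at 2.79, 20.4 and 22.7 FPKM, Cd68, a lysosomal protein, at 49.5, 198 and 222, and Emr1 at 14.0, 29.7 and 30.9. Lyz2 (log2 ratio 0.17), Csf1r (0.18), Mrc1 (0.1), Msr1 (0.92) and Cd14 (-0.35) were under 2-fold, so the markers did not move together. For ncls 0 of 8 passed 2-fold, with a median log2 ratio of 0.16, while Saa3 had 1.10. The 9 neutrophil markers with a value summed to 10.4, 42.3 and 37.0 FPKM in WAT, and 4, 3 and 1 of them reached 1 FPKM. Most of the sum on HFD was S100a8, a calcium-binding protein of neutrophils and other myeloid cells, at 4.19, 34.7 and 35.5 FPKM, with a log2 ratio of 3.02 for diet beside 3.01 for Saa3. S100a9 stood at 2.62, 5.07 and 0.523 FPKM, Retnlg at 1.79, 1.89 and 0, and Elane at 1.65, 0.377 and 0.760, while Ltf, Camp, Ngp, Mpo and Cxcr2 did not pass 0.125 FPKM. The part of macrophages or neutrophils in the Saa3 values was not tested.

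Of the cytokines and factors, 0 of 16 that passed the filter in WAT passed 2-fold for diet, against 9.11% of 12208 genes. For ncls 1.49% of 12152 genes were higher, and so were 2 of 17 in this list. These were Il6, listed at 0 in NCD-veh and at 0.051 and 1.51 FPKM in HFD-veh and HFD-ncls WAT, and Cebpd, a C/EBP factor of the response, at 9.99, 7.54 and 17.3 FPKM. Il6 was thus detectable at 1 FPKM in a single library of the 12. Of the other positive acute-phase genes in WAT, Lbp, which binds bacterial lipopolysaccharide, was at 72.9, 204 and 213 FPKM and Serpina3n, a protease inhibitor, at 222, 307 and 351. For diet 8 of 19 in that list were higher and 2 lower, against 5.24% of 12208 genes higher and 9.11% in either direction. The 8 held Fgb, Fgg, Hamp and Serpina3k, genes of hepatocytes that were at under 2 FPKM in NCD-veh WAT. Hamp, the liver iron hormone hepcidin, was at 0, 1.42 and 7.28 FPKM, an order it shared with the liver-enriched set.

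**Figure D4:**
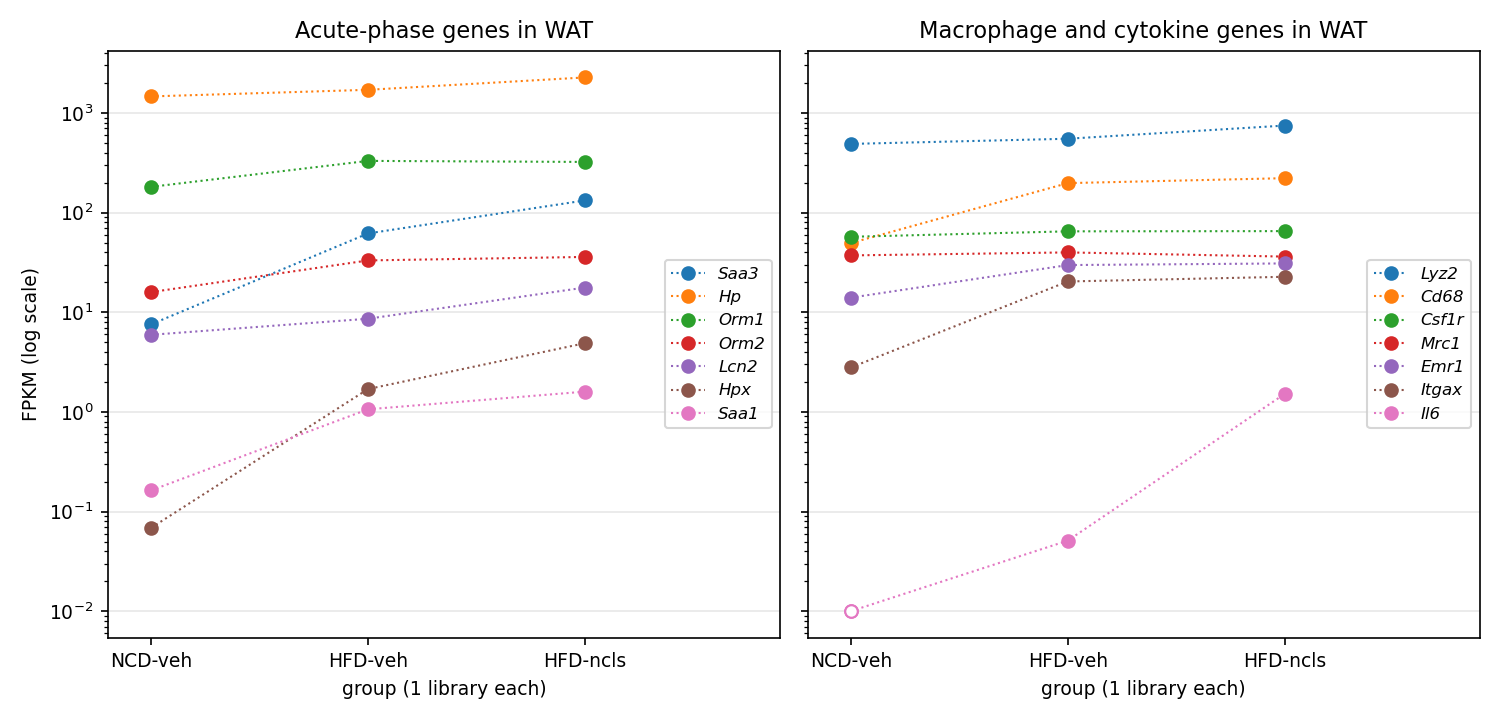
FPKM on a log axis in WAT of the 3 groups, with 1 library per point and dotted lines only to join a gene, for acute-phase genes and for macrophage and cytokine genes, with values listed at 0 drawn as open symbols at 0.01. Saa3 stands at 7.56, 61.8 and 132 FPKM, Hp is the highest throughout, and Il6 reaches 1 FPKM in HFD-ncls.

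BAT held Hp and the orosomucoids at lower levels and almost none of the rest. Hp was at 276, 305 and 178 FPKM in BAT, below every WAT library. Orm1 stood at 107, 43.8 and 41.1 FPKM and Orm2 at 12.6, 5.36 and 5.95, with NCD-veh the highest for both. Saa1, Saa2 and Apcs were listed at 0 in all 3 BAT libraries, and Saa3 did not pass 0.429 FPKM.

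For diet in BAT, 4 members passed the filter. Orm1 (log2 ratio -1.28) and Orm2 (-1.22) were lower by over 2-fold, against 2.01% of 10444 genes lower, and Lcn2 (1.81) was higher, against 2.28% higher and 4.29% in either direction. Lcn2 was at 0.378, 1.58 and 0.395 FPKM, on about 8 to 32 fragments, and its log2 ratio was 0.90 with a pseudocount of 1. It passed the filter only through HFD-veh BAT, which set its direction in both contrasts. For ncls Lcn2 was the only member past 2-fold, lower by 1.76 on the log2 scale (0.89 with a pseudocount of 1), against 1.7% of 10331 genes lower and 1.96% in either direction. Hp had a log2 ratio of -0.78. Skeletal muscle markers in BAT summed to 1374, 585 and 90.9 FPKM, and their part in the Orm and Lcn2 values was not tested.

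Muscle held the least of these transcripts, and its HFD-veh library stood apart. Hp was at 3.90, 23.6 and 5.27 FPKM in muscle, Hpx at 0.0865, 8.92 and 0.0279, and Orm1 at 0.576, 5.60 and 0.915. In each case HFD-veh was high and the other libraries low. Crp was listed at 0, 1.41 and 0.0238 FPKM and Saa3 at 0.112, 1.18 and 0.653, with HFD-veh again the highest, while Lcn2, at 1.08, 0.324 and 0.822, had its lowest value there. For diet 6 members passed the filter, of which 5 were higher by over 2-fold and 1, Lcn2, lower. Among 9587 genes 3.14% were higher, 0.97% lower and 4.11% differed in either direction. Hpx, Crp, Orm1 and Saa3 passed only through HFD-veh muscle and Lcn2 only through NCD-veh muscle, so the filter set their direction. The higher 5 were Hpx (log2 ratio 5.60), Crp (3.91), Orm1 (3.08), Saa3 (2.59) and Hp (2.57), and Lcn2 had -1.47. With a pseudocount of 1 the log2 ratio was 0.97 for Saa3 and -0.65 for Lcn2, both under 2-fold. For ncls 4 of 5 that passed were lower, Hp, Hpx, Orm1 and Crp, against 2.53% of 9694 genes lower and 3.8% in either direction. Here too Hpx, Orm1, Crp and Saa3 passed only through HFD-veh muscle, so they could only be lower.

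Liver transcripts moved with these values in muscle. All 16 hepatocyte markers were higher by over 2-fold for diet and lower for ncls, against 3.14% of 9587 genes higher and 2.53% of 9694 lower. Both contrasts use the same HFD-veh muscle library, so the 2 directions are not separate observations. As a percent of HFD-veh liver, Hpx was at 0.466%, Crp at 0.761%, Orm1 at 0.895%, Orm2 at 0.511%, Apcs at 0.5%, Saa1 at 0.361% and Saa2 at 0.402%, beside 0.679% (quartiles 0.554% and 0.885%) for liver-enriched genes. Hpx, Orm2, Apcs, Saa1 and Saa2 lay below the lower quartile, Crp between the quartiles and Orm1 just above the upper. Hp at 1.47%, Lcn2 at 3.18% and Saa3 at 15.4% lay further above it. As a percent of NCD-veh liver, where all 3 of these were higher, they came to 0.548%, 0.0475% and 0.281%. With the liver share taken off, Hpx came to 0, Hp to 3.47, 12.7 and 5.17 FPKM and Saa3 to 0.0705, 1.13 and 0.652. With HFD-ncls in place of HFD-veh against NCD-veh, 0 of the 2 members that passed the filter in muscle, Hp and Lcn2, passed 2-fold, against 1.21% of 9516 genes in either direction.

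The genes whose pattern was most like Saa3, Hp and Lcn2 were sought over the 12 libraries, as Pearson r of log2(FPKM + 0.1) with the mean of each organ removed, among 12843 genes. For Saa3 they were Gngt2 (r = 0.982), Marco (0.980) and Smagp (0.963), for Hp Slc25a30 (0.962), Rab32 (0.955) and Serpina3n (0.954), and for Lcn2 Btg1 (0.961), Asap2 (0.957) and Tor3a (0.946). Marco is a scavenger receptor of macrophages. It was low, at 0.811, 1.42 and 1.58 FPKM in WAT, and was listed at 0 in every BAT library. The libraries share organs and animal groups. Without HFD-veh muscle and HFD-ncls WAT only 1 of the 3 genes was kept for Saa3, Gngt2 and not Marco, and 0 for Hp and Lcn2.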

How the data were processed

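RNA of WAT, BAT, liver and quadriceps muscle (1 library for each of 3 groups) had been sequenced by the study. Per the labels and methods, reads were mapped by the authors with TopHat 2.0.11 on mm9, and FPKM per RefSeq gene came from Cufflinks (version not given in the sources used here). The deposited table gives FPKM for 22276 symbols, of which 86 lacked a value in at least 1 library.

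Ratios were taken on log2(FPKM + 0.1), which understates the change of low genes. They covered genes with at least 1 FPKM in 1 of the 2 libraries. A gene that reached 1 FPKM in only 1 of them could differ in only 1 direction. Calls were made past 2-fold, the fold threshold of the methods, whose p-value and FDR limits were not applied. With 1 library per group no test was made. The comparisons for diet and ncls share each organ's HFD-veh library, so no overlap between them is given. The liver share is the median percent over 232 genes (mean liver FPKM of at least 100 and no less than 20-fold over the median elsewhere). Depth was estimated from low values, of which 68.8% to 76.3% lay within 0.08 of a whole fragment. Named genes were the 10 members, the 3 genes most like Saa3, Hp and Lcn2, and genes of the fixed lists. Members and lists were chosen with earlier results of these data known. Other pseudocounts, filters, rescaling, removal of the liver share and another definition of it were tried. Python 3.11.15, numpy 2.4.6, pandas 2.3.3 and matplotlib 3.10.9 were used, tested on simulated data.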

Additional observations from a re-analysis of the deposited data

Results flagged for a closer look

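Each difference below was picked out because a gene was past 2-fold in opposite directions in 2 organs for the same contrast, with 1 library a group. The difference itself was not tested. Values are differences between the log2 ratios of the 2 organs.

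For HFD-veh over NCD-veh, liver was lower where WAT or muscle was higher. Saa3 differed by 8.77 between WAT and liver and by 8.34 between muscle and liver. Saa1 differed by 7.88 between WAT and liver. Hpx differed by 5.22 between WAT and liver and by 7.4 between muscle and liver. Hp differed by 4.0 and Orm1 by 5.3 between muscle and liver, and Orm2 by 4.81 between WAT and liver. Lcn2 was higher in BAT and lower in liver and muscle, and its ratio differed by 7.86 between BAT and liver and by 3.29 between BAT and muscle. Orm1 differed by 4.36 between muscle and BAT, and Orm2 by 2.27 between WAT and BAT.

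For HFD-ncls over HFD-veh, Hpx differed by 7.61 between WAT and muscle, the organs whose HFD-ncls and HFD-veh libraries held liver transcripts. Lcn2 differed by 2.79 between WAT and BAT. Hpx lay at 0.686 times the liver share in HFD-veh muscle and at 0.625 times in HFD-ncls WAT, while in HFD-veh muscle Hp lay at 2.17, Lcn2 at 4.68 and Saa3 at 22.6 times it and Saa1 at 7.49 times it in HFD-veh WAT. With a pseudocount of 1, Saa3 and Lcn2 for diet in muscle, Saa1 for diet in WAT and Lcn2 for ncls in WAT and for both contrasts in BAT were under 2-fold. The Lcn2 values in BAT rested on few fragments, and so did others. In NCD-veh and HFD-veh, about 1.14 and 12.4 fragments stood behind Saa3 in muscle. The same was about 1.65 and 10.4 for Saa1 in WAT, and 21.9 and 6.87 for Lcn2 in muscle.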

How the results depend on the processing

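The 9 liver members lower on HFD kept their count and direction under each of the other pseudocounts, filters and scalings. No member past 2-fold changed sign where it still passed the filter, while under 2-fold Hp for diet in BAT went from 0.15 to -0.63 and Crp for diet in liver from 0.11 to -0.3 with HFD-ncls in place of HFD-veh. Of single-gene values that still passed the filter, 310 kept their side of 2-fold and 11 did not. The 310 include 53 values with no filter and 42 with a filter of 5 FPKM, which could not move, since a filter leaves a ratio unchanged. Taking off the liver share likewise left every liver value as it was, so the 310 overstate what was tried. Further values past 2-fold fell below the filter and lost their call, 9 with a filter of 5 FPKM, 7 with the liver share taken off and 5 with HFD-ncls in place of HFD-veh. Counts of members past 2-fold moved as follows. In WAT for diet, 4 became 2 with a filter of 5 FPKM and 2 with the liver share taken off. In muscle for diet, 6 became 10 with no filter, 3 with a filter of 5 FPKM and 0 with HFD-ncls in place of HFD-veh, an alternative chosen after seeing the data. In BAT for ncls, 1 became 0 with a pseudocount of 1 and 0 with a filter of 5 FPKM. In muscle for ncls, 4 became 9 with no filter and 1 with the liver share taken off. With liver-enriched genes set at 100 times the other libraries, the median percent came to 0.00558 in NCD-veh WAT, 0.00744 (NCD-veh), 0.00665 (HFD-veh) and 0.00278 (HFD-ncls) in BAT, and 0.00398 and 0.000282 in NCD-veh and HFD-ncls muscle. Of the 3 most like genes, Saa3 kept 1 with a pseudocount of 1 and 1 without the 2 libraries that held liver transcripts, Hp kept 1 and 0, and Lcn2 kept 0 without them. Filters and pseudocounts change which low genes are counted, and other causes were not tested. No paired analysis was possible because each organ and group had 1 library and the labels carry no replicate numbers. Levels under about 1 FPKM rest on few fragments.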

Other observations

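The suppressor of cytokine signalling Socs3, which interleukin-6 induces through STAT3, was higher by over 2-fold for diet in BAT and muscle. It stood at 0.431, 2.70 and 2.28 FPKM in BAT (NCD-veh first, HFD-ncls last) and at 0.409, 1.36 and 1.68 in muscle, while WAT held 4.01, 3.41 and 4.56 and liver 3.12, 2.12 and 2.13. For diet, 2.28% of 10444 genes were higher by over 2-fold in BAT and 3.14% of 9587 in muscle. The part of liver transcripts in the muscle values of Socs3 was not tested.

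Genes that clear the products bound by Hp and Hpx were read as well. Hmox1, which degrades haem, was at 19.8, 60.2 and 75.5 FPKM in WAT in the same order, with a log2 ratio of 1.60 for diet. Cd163, the receptor for haptoglobin bound to haemoglobin, was at 24.1, 15.3 and 14.0 FPKM, under 2-fold.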
